A study of Mus musculus with 10 samples.

Results

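The 10 genes described here, of 14276 in the table, encode the scaffold of the presynaptic active zone and the factors that prime synaptic vesicles there. They are the RIM genes Rims1, Rims2 and Rims3, the giant cytomatrix proteins Bsn and Pclo, the ELKS genes Erc1 and Erc2, and the priming factors Unc13a, Cadps and Cadps2. They were chosen by name, with earlier results of these data known, so counts and medians set against all genes only describe them. All 10 were in the table and passed the low-count filter. Total RNA came from cortex of 3-month-old C57BL/6 mice, with 5 control and 5 BrapcKO libraries, the latter from mice with a conditional knockout of Brap, a ubiquitin ligase that is known to restrain Ras signalling to MAP kinase. The control libraries were 3 flox/wt Cre- and 2 flox/flox Cre-, and the BrapcKO libraries 3 flox/ko Cre+ and 2 flox/flox Cre+, where flox is an allele that Cre recombinase can delete and ko a deleted one. All BrapcKO mice carried Cre and no control did, so Cre and the knockout cannot be told apart, and the labels read here do not name the driver of Cre or the exons it deletes. No label states that each library is a separate animal, so p-values cover the spread among the 10 libraries only, which may be technical in part.

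The active zone is the patch of presynaptic membrane where vesicles dock and fuse. RIM proteins sit at its centre, bind Rab3 on vesicles and calcium channels in the membrane, and recruit Munc13, which opens syntaxin so that the SNARE complex can form. ELKS proteins, Bassoon and Piccolo complete the scaffold, and CAPS proteins prime dense-core vesicles, which carry neuropeptides and neurotrophins, and also act at synaptic vesicles. In cortex these genes are expressed by neurons of many types.

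Library totals ran from 17188901 to 28991874 counts, and the member with the fewest reads in any library had 1760. Titles carry a code, B1 or B2, of unstated meaning: B1 held 2 control and 4 BrapcKO libraries, B2 held 3 control and 1 BrapcKO. Sex was uneven too, since the Y-linked gene Ddx3y was read at 115 to 148 CPM (a gene's reads relative to all reads of its library) in 1 control and 4 BrapcKO libraries, while 4 control and 1 BrapcKO libraries had at most 0.0519 CPM. Brap itself averaged 88.4 ± 8.58 CPM in control and 104 ± 9.15 CPM in BrapcKO (SD, n = 5 each; log2 difference 0.23, edgeR adjusted p 0.182), so gene-level counts do not show the deletion and the groups are those of the labels, unchecked by Brap. Values are CPM with library totals scaled by TMM, differences are log2 BrapcKO minus control from edgeR's quasi-likelihood test that also fits the title code, and a change is an adjusted p under 0.05 over all genes.

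Transcripts of 4 of the 10 members fell in BrapcKO cortex and none rose: Cadps2 to 50.8%, Rims1 to 54.9%, Unc13a to 71.6% and Rims2 to 79.6% of control. Over all genes 8.07% changed in this comparison, 4.95% down and 3.12% up. At an unadjusted p under 0.05, 7 members were lower and 0 higher, against 11.7% and 10.4% of all genes. DESeq2 called 6 members lower and 0 higher, against 6.82% and 4.97% of all genes. The median difference of the 10 was -0.27, against 0.01 over all genes, and 9 of the 10 estimates were below 0.

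**Figure D1:**
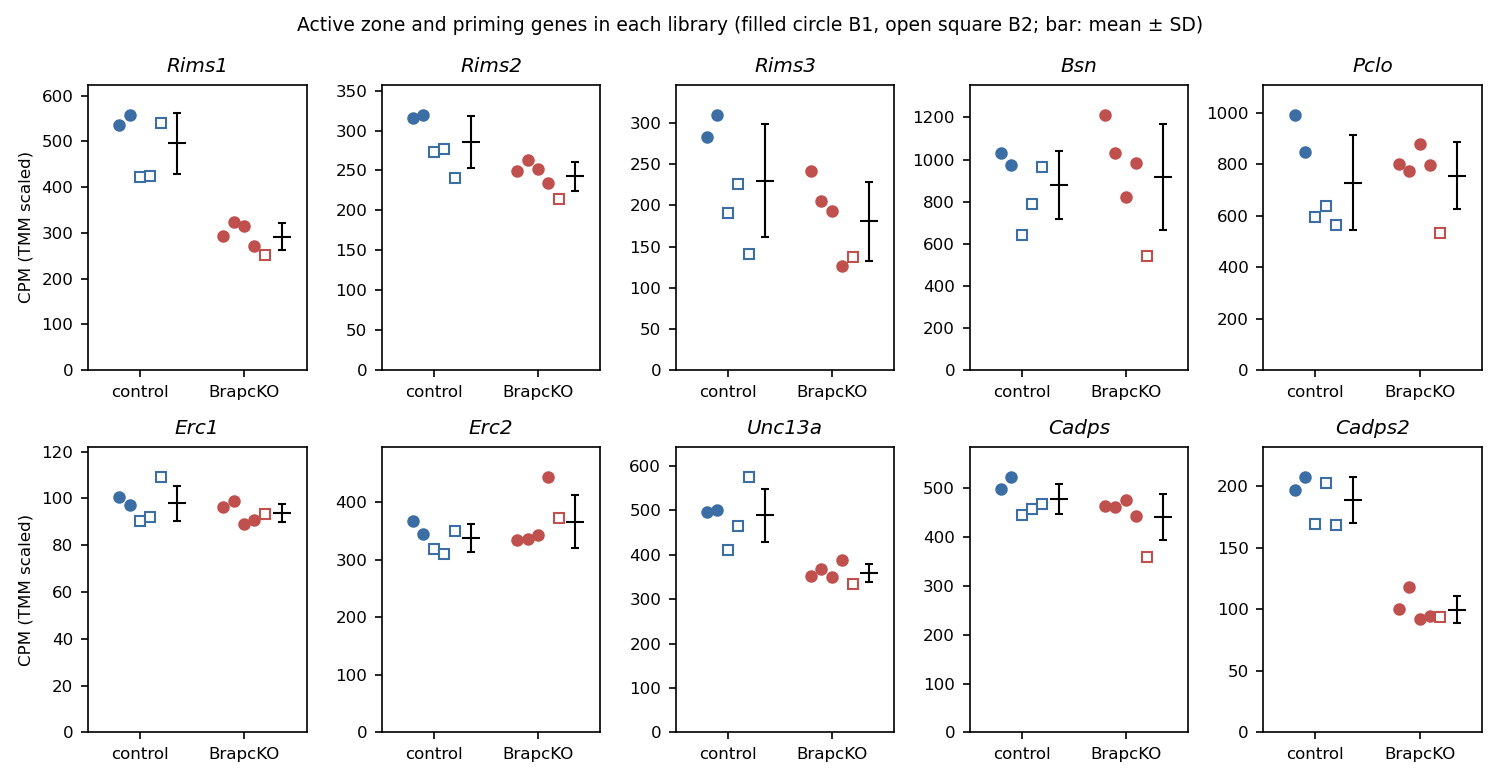
Level of each member in every library in TMM-scaled CPM (vertical axes from 0) by group, with the mean and SD of 5 libraries beside the points; filled circles are B1 and open squares B2 libraries. For Rims1, Unc13a and Cadps2 all 5 BrapcKO libraries lie below all 5 control libraries, while the other members overlap.

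Rims1 (ENSMUSG00000041670.16, GRCm38 chromosome 1, 22286251 to 22805994, minus strand) encodes RIM1, the central organiser of the active zone. It stood at 537, 557, 421, 425 and 539 CPM in control 08, 09, 22, 23 and 24, and at 294, 324, 314, 272 and 253 CPM in BrapcKO 04, 05, 06, 07 and 21. The lowest control library was above the highest BrapcKO library, a separation in this direction seen in 3.71% of all genes. Rims1 averaged 496 ± 66.9 CPM in control and 291 ± 29.3 CPM in BrapcKO (SD, n = 5 each), and the edgeR difference was -0.87 (SE 0.09, 95% interval -1.06 to -0.67, adjusted p 0.000209).

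Rims2 (ENSMUSG00000037386.16, chromosome 15, 39198261 to 39684372, plus strand) encodes RIM2, which overlaps with RIM1 in function. Control libraries 08, 09, 22, 23 and 24 had 316, 319, 273, 277 and 241 CPM, and BrapcKO 04, 05, 06, 07 and 21 had 249, 263, 251, 235 and 215 CPM. The groups overlapped through control 24, a B2 library, but within each code every BrapcKO library was below every control library. B1 held 2 control and 4 BrapcKO libraries and B2 held 3 and 1, and the share of all genes in this order was not counted. The difference was -0.33 (SE 0.07, interval -0.48 to -0.18, edgeR adjusted p 0.0133). This call was absent with group as the only term (-0.23, adjusted p 0.197), with a Y-linked score added to the code (-0.37, adjusted p 0.0804), and without control 08, control 09 or BrapcKO 21 (adjusted p 0.0613 to 0.0708).

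Rims3 (ENSMUSG00000032890.17, chromosome 4, 120854816 to 120896579, plus strand) encodes a short RIM that keeps only the carboxy-terminal C2 domain of the family. Its controls spread more, relative to their mean, than those of any other member, at 283, 310, 191, 227 and 140.5 CPM in control 08, 09, 22, 23 and 24 and 242, 205, 193, 127 and 138 CPM in BrapcKO 04, 05, 06, 07 and 21. The groups overlapped, with control 24 below 3 BrapcKO libraries. Its difference of -0.56 (SE 0.18, interval -0.94 to -0.18) had an edgeR adjusted p of 0.0775, while DESeq2 gave 0.023, and it was called without control 24 or BrapcKO 04 (adjusted p 0.0395 and 0.049).

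Bsn and Pclo, which encode the very large proteins Bassoon and Piccolo that span the active zone and cluster vesicles, did not pass the test. Bsn (ENSMUSG00000032589.14, chromosome 9, 108096022 to 108190384, minus strand) had 1030, 975, 640.3, 788 and 964 CPM in the controls and 1211, 1030.4, 822, 985 and 541 CPM in BrapcKO, in the library order used above. The highest and the lowest library were both BrapcKO. Its difference was -0.19 (interval -0.52 to 0.15, adjusted p 0.532), and the estimate was above 0 with group as the only term (0.06), in B1 alone (0.01) and without BrapcKO 21 (0.01). Pclo (ENSMUSG00000061601.15, chromosome 5, 14514918 to 14863459, plus strand) had 990.3, 849, 594, 636 and 565 CPM in the controls and 799.8, 772, 877, 796 and 533 CPM in BrapcKO. Its values divided by title code more than by group: all 6 B1 libraries were at 772 CPM or more and all 4 B2 libraries at 636 CPM or less. The difference was -0.18 (interval -0.34 to -0.01, adjusted p 0.192), and 0.06 with group as the only term.

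The ELKS genes also did not pass. Erc1 (ENSMUSG00000030172.15, chromosome 6, 119570796 to 119848167, minus strand) encodes a form made in many tissues, and ranged from 90.3 to 109 CPM in control and from 89.3 to 98.8 CPM in BrapcKO. Its difference was -0.07 (interval -0.24 to 0.10, adjusted p 0.663). Erc2 (ENSMUSG00000040640.11, chromosome 14, 27622428 to 28478537, plus strand) encodes the form enriched in brain, known as CAST, and ranged from 309.6 to 368 CPM in control and from 335 to 443 CPM in BrapcKO, with BrapcKO 07 the highest. Its difference was 0.09 (interval -0.12 to 0.30, adjusted p 0.638), the only estimate above 0 among the 10. These intervals leave out differences as large as those of Rims1 and Cadps2.

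Unc13a (ENSMUSG00000034799.16, chromosome 8, 71624417 to 71671757, minus strand) encodes Munc13-1, the main priming factor of excitatory synapses in forebrain. The controls had 497, 501, 411, 465 and 575 CPM and the BrapcKO libraries 353, 368, 351, 387 and 333 CPM, again in the order 08, 09, 22, 23, 24 and 04, 05, 06, 07, 21. The groups did not overlap, and BrapcKO 07 came closest to the controls. The difference was -0.48 (SE 0.09, interval -0.69 to -0.28, edgeR adjusted p 0.00815). It was not called with the Y-linked score added (-0.48, adjusted p 0.0905) or without BrapcKO 21 (-0.46, adjusted p 0.0637). Of its exonic bases, 3.92% overlap exons of Colgalt1 on the other strand, and the labels do not say whether counting used strand. For Erc1 the share that overlaps an opposite-strand gene, Gm44317, is 11.8%.

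The CAPS genes differed from each other. Cadps2 (ENSMUSG00000017978.18, chromosome 6, 23262773 to 23839421, minus strand) encodes CAPS2, known for its part in the release of neurotrophins from dense-core vesicles. It had 197, 207, 169, 202 and 168 CPM in control 08, 09, 22, 23 and 24 and 100.2, 118, 91.7, 94.2 and 94 CPM in BrapcKO 04, 05, 06, 07 and 21. The highest BrapcKO library, 05, was well below the lowest control, 24. Cadps2 averaged 189 ± 18.6 CPM in control and 99.7 ± 10.8 CPM in BrapcKO (SD, n = 5 each), a difference of -0.98 (SE 0.09, interval -1.18 to -0.78, edgeR adjusted p 0.000127). Cadps (ENSMUSG00000054423.14, chromosome 14, 12372563 to 12823079, minus strand), which encodes CAPS1, had 499, 523, 446, 458 and 467 CPM in the controls and 464, 463, 476, 444 and 359.9 CPM in BrapcKO. The groups overlapped, with BrapcKO 21 the lowest library, but within each code every BrapcKO library was below every control library. As for Rims2, the share of all genes in this order was not counted, and B2 held 1 BrapcKO library. Its difference was -0.22 (interval -0.37 to -0.07, edgeR adjusted p 0.0779), DESeq2 gave an adjusted p of 0.00981, and without BrapcKO 21 the difference was -0.15 (adjusted p 0.391).

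**Figure D2:**
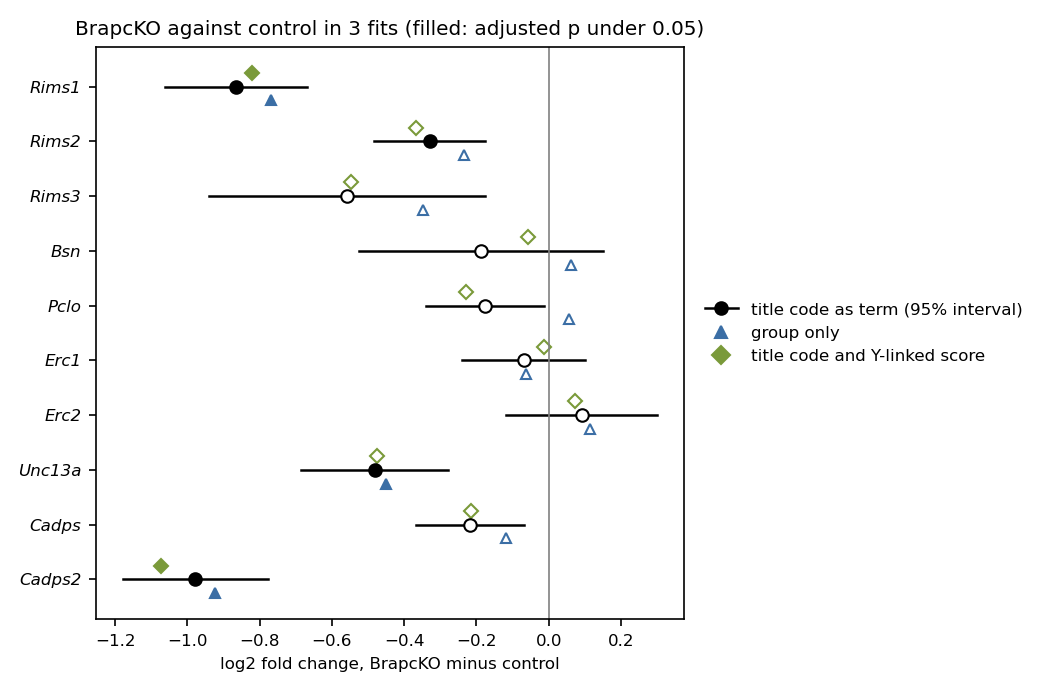
Log2 fold change of each member, BrapcKO minus control (horizontal axis), in the fit with the title code (circles, lines for the 95% interval), with group only (triangles) and with the code and a Y-linked score (diamonds); filled symbols have an adjusted p under 0.05. Rims1 and Cadps2 are filled in all 3 fits, Unc13a in 2 and Rims2 in 1.

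Rims1 and Cadps2 were called in each of these 3 fits and in each of the 10 fits that left out 1 library. Rims1 ran from -0.88 to -0.82 and Cadps2 from -1.02 to -0.94 when 1 library was left out. With both the code and the score fitted they differed by -0.82 and -1.07 (edgeR adjusted p 0.00868 and 0.00144), and 2 members fell and 0 rose, where 2.3% of all genes changed (1.63% down, 0.665% up). With group as the only term they differed by -0.77 and -0.92 (adjusted p 0.00368 and 0.000816), and 3 members fell and 0 rose, where 4.32% of all genes changed (2.49% down, 1.83% up).

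For Rims1, Unc13a and Cadps2 the difference was below 0 within each title code and within each sex as read from Y-linked genes. Its sign was fixed in advance, since the groups of these genes did not overlap, so only its size is informative. In B1 alone, Rims1, Unc13a and Cadps2 differed by -0.87, -0.45 and -1.01 in mean log2 CPM, and in B2, which holds 1 BrapcKO library, by -0.86, -0.52 and -0.93. In the libraries with Y-linked reads, of which 1 is a control, they differed by -0.55, -0.37 and -1.03, and in the libraries without, of which 1 is BrapcKO, by -0.80, -0.48 and -0.88. These last values are not adjusted for the code. With the code as a term in each sex, Rims1 differed by -0.73 and -0.88, Unc13a by -0.46 and -0.49, and Cadps2 by -1.09 and -0.998. The values with Y-linked reads then rest on control 23 against BrapcKO 21, the only B2 libraries among them. The values without rest on BrapcKO 04 against control 08 and control 09, the only B1 libraries among them. With 1 library in an arm, edgeR called 0 of the 10 members in B2 or in either sex, and 4, 4 and 2 members had an unadjusted p under 0.05 in B2, with Y-linked reads and without. The shares over all genes at that p were 14.2%, 9.95% and 9.91%.

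Among the members that are paralogues, shares of their summed signal differed between the groups. Per kb of exon, Cadps2 made up 36.2 to 41% of the summed Cadps and Cadps2 signal in control libraries and 23.3 to 29.1% in BrapcKO libraries. Rims1 made up 51.2 to 64.2% of the 3 RIM genes in control and 42.3 to 49% in BrapcKO, and Rims2 20.3 to 24.5% and 25.4 to 29.9%. None of these 3 shares overlapped between the groups. The levels of Rims1 and Cadps2 did not overlap either, and shares in other gene families were not computed. In each library the 3 RIM shares add up to their whole, so those of Rims1 and Rims2 are not separate results. Rims4, a RIM gene that is not a member, averaged 26.2 CPM per kb in control and 25.8 in BrapcKO. It was left out of the sum, and adding it would lower each RIM share. Whether the shares of Rims1 and Rims2 would then overlap between the groups was not computed. The share of Rims2 was higher in BrapcKO although its own transcript level was lower, and the share of Rims3 overlapped, at 15.5 to 26.7% and 21.1 to 32.2%. Bsn made up 59.4 to 70.6% of Bsn and Pclo in control and 56.9 to 68.1% in BrapcKO, and Erc2 84.3 to 85.9% and 85 to 89.1% of the ELKS pair. A share of exon length treats all annotated exons as used, so the shares describe these libraries and not molecules per cell.

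**Figure D3:**
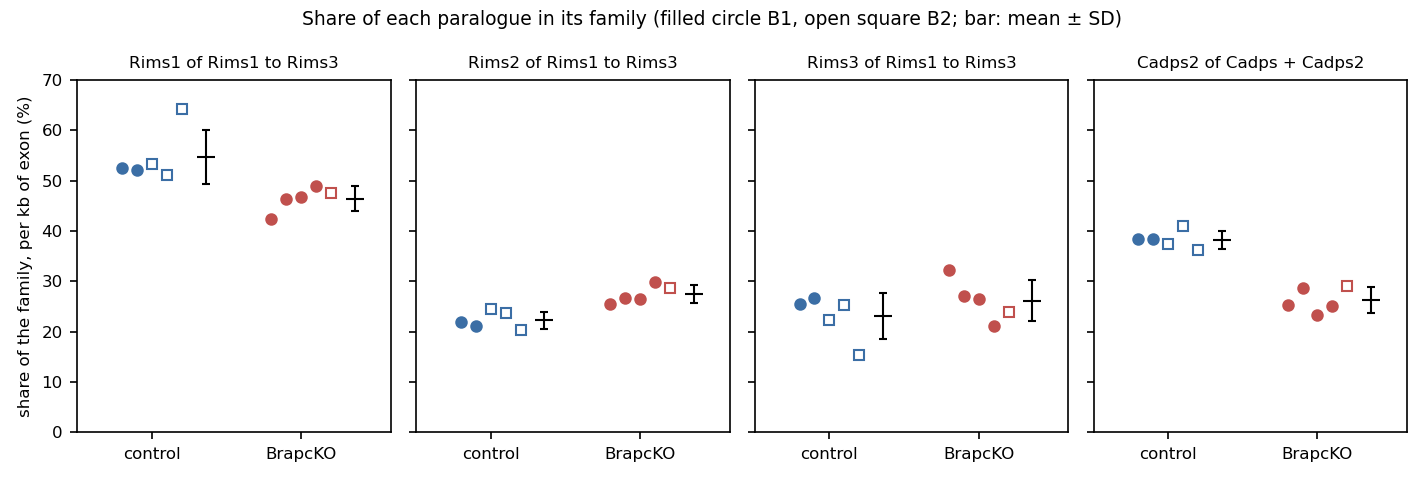
Share of Rims1, Rims2 and Rims3 in the summed signal of these 3 genes, without Rims4, and of Cadps2 in that of Cadps and Cadps2. Values are per kb of exon, in percent (vertical axis from 0), for every library with the mean and SD of 5 libraries. The Cadps2 share is 38.3 ± 1.79% in control and 26.3 ± 2.51% in BrapcKO.

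The order of levels per exon length also differed between the groups. In control cortex Rims1 was the highest member at 67.3 ± 9.09 CPM per kb, followed by Bsn at 55.2 ± 10.1, Unc13a at 38.8 ± 4.73 and Erc2 at 34.7 ± 2.45 (SD, n = 5). Pclo, Cadps, Rims3 and Rims2 came next at 32.4, 31.8, 28.9 and 27.5 CPM per kb, then Cadps2 at 19.7 ± 1.94 and Erc1 at 6.02 ± 0.46. Neighbours from Unc13a down to Rims2 differed by less than the larger of their SDs. Rims1 was above Bsn in 5 of 5 control libraries and in 1 of 5 BrapcKO libraries, where the means were 39.6 ± 3.98 and 57.6 ± 15.8 CPM per kb. That 1 library was BrapcKO 21 (34.3 and 33.9 CPM per kb), the only B2 library of its group. The part of the title code in this order was not tested. Unc13a was above Erc2 in 4 of 5 control and 0 of 5 BrapcKO libraries.

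Rims1 and Cadps2 fell in both kinds of knockout genotype. With the 4 genotypes as groups and the title code as a term, flox/ko Cre+ against flox/wt Cre- libraries (3 each) differed by -0.82 for Rims1 and -1.02 for Cadps2 (edgeR adjusted p 0.00163 and 0.00216). Flox/flox Cre+ against flox/flox Cre- libraries (2 each), which all carry a floxed pair of Brap alleles, differed by -0.88 and -0.90 (edgeR adjusted p 0.00878 and 0.0269). Here BrapcKO 05 and BrapcKO 06 had Y-linked reads and were B1. Control 09 (B1) and control 24 (B2) had none, so sex and Cre cannot be told apart from these libraries alone. In the first contrast 3 members fell, the third being Rims2 (-0.39, adjusted p 0.0315), where 4.84% of all genes changed (3.08% down, 1.77% up). In the second 2 members fell, where 0.736% of all genes changed (0.399% down, 0.336% up), but 0 members were called there with the code left out or the Y-linked score added (3 at an unadjusted p under 0.05 in each, against 9.98% and 5.85% of all genes), and 1 without control 08, control 22 or BrapcKO 06. Unc13a differed by -0.38 and -0.62 in the first and the second (adjusted p 0.0725 and 0.0664). The contrasts themselves differed by 0.07 for Rims1 (interval -0.24 to 0.37) and by -0.12 for Cadps2 (interval -0.53 to 0.28). No gene was called for a difference between the contrasts by edgeR (0% of 14276), with 873 genes (6.12%) and 0 members at an unadjusted p under 0.05.

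The title code went with differences in 5 members. In the same fit they were lower in B2 than in B1, Pclo (-0.61, edgeR adjusted p 6.8e-05), Rims3 (-0.59), Bsn (-0.55), Rims2 (-0.25) and Cadps (-0.24, adjusted p of these last from 0.0239 to 0.0312). Of all genes 25.1% differed by code, 11.8% lower and 13.4% higher in B2. Of the 5, only Rims2 also fell in BrapcKO, while Rims1, Unc13a and Cadps2 had code differences of -0.25, -0.08 and -0.14 (adjusted p 0.0692, 0.598 and 0.307). Fewer members were called for the code without control 22 or BrapcKO 21 (1 each), control 09 (2), or control 08 or BrapcKO 04 (3 each).

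The sequence just upstream of the start is shown for the 3 members whose groups did not overlap, as the stretch in which promoter motifs were searched. The set of RefSeq (GRCm38.p6) starts used here covered 9 of the 10 members, all but Rims2, and so included Rims1, Unc13a and Cadps2. The 250 bases before each start are shown on the gene's strand, with capitals marking the GC box GGGCGG, the CRE half-site TGACG and the CCAAT box on either strand. The coordinates are chr1:22806159-22806408 for Rims1, chr8:71671758-71672007 for Unc13a and chr6:23839422-23839671 for Cadps2, all on the minus strand. The RefSeq start of Rims1 lies 164 bases upstream of the GENCODE start, and those of Unc13a and Cadps2 coincide.
Rims1: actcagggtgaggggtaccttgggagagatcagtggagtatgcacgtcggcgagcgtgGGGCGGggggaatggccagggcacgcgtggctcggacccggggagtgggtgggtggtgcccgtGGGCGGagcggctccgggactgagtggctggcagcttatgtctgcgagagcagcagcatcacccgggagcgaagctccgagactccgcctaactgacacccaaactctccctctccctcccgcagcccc
Unc13a: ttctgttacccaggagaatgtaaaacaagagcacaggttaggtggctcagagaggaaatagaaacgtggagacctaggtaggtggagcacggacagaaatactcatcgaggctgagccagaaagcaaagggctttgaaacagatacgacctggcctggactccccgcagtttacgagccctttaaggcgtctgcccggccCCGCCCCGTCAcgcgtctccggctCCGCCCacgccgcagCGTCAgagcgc
Cadps2: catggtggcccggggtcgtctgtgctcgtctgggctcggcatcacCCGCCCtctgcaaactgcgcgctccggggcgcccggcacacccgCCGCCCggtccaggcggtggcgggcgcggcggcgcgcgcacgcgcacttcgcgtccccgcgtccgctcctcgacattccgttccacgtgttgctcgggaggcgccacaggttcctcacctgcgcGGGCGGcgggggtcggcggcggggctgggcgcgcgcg

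All 3 windows held GC boxes, 2 in Rims1, 2 in Unc13a and 3 in Cadps2, and 6 of the 9 members with a window had at least 1. A GC box was present in 32.7% of the 32817 windows of the same length. Among the members without a call, Rims3, Pclo and Erc1 also held it. The full CRE, TGACGTCA, was in none of the 9 windows and in 1.55% of all, and the half-site, which the full CRE contains, was in 2 of the 9 (Unc13a and Erc1) and in 17.7% of all. The TATA box TATAAA was in 0 of 9 (12.4% of all), the AP-1 motif TGANTCA in Erc2 alone (6.75%) and the E-box CACGTG in Cadps2 alone (6.02%). The windows of Rims1, Unc13a and Cadps2 were 68, 58 and 78% G or C, against a median of 52.4% over all windows. These are matches of letters in 1 window per gene and do not show binding.

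Most of the members are large genes. Of the 10, 6 span over 300 kb, as do 533 genes in the table, and 3 of those 6 fell, namely Rims1 (519.7 kb), Rims2 (486 kb) and Cadps2 (577 kb). The others, Erc2 (856 kb), Cadps (451 kb) and Pclo (349 kb), were not called. Over all genes, 15.2% of those over 300 kb fell and 3.94% rose, against 3.29% and 3.38% of those under 10 kb, with median differences of -0.12 and 0.04. Unc13a spans 47.3 kb, a class (10 to 50 kb) in which 3.36% of genes fell. The part of gene size in the result was not tested.

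Other genes of the release machinery were read from a pair of lists. Of 32 partners of the active zone 4 fell and 1 rose, with a median of -0.10 against 0.01 over all genes. Over all genes 4.95% fell and 3.12% rose. Rph3a, rabphilin, a Rab3 effector of vesicles, had 365, 310, 219, 245 and 247 CPM in the controls and 167, 173, 159.9, 163 and 125 CPM in BrapcKO (-0.99, SE 0.08, edgeR adjusted p 4.2e-05). Its BrapcKO libraries, at 50.4% of control in the fit, were all below its controls. Rph3a lies near the targeted gene on chromosome 5, at 120940499 to 121010092, with Brap at 121660563 to 121687256. The part of this position in its difference was not tested. Ptprd, a receptor phosphatase that binds liprins (-0.43), Lin7a, an adaptor of the CASK complex (-0.38), and Cacna1a, the pore of P/Q-type calcium channels (-0.42), fell too (adjusted p 0.00405, 0.0218 and 0.0412), but none of the 3 was called with group as the only term (0.139 to 0.254). Cacna2d2, an auxiliary subunit of calcium channels, rose by 0.89 (adjusted p 0.0011), from 42.5 ± 2.85 to 73.4 ± 15.5 CPM.

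Of 24 priming and SNARE regulators 5 fell and 1 rose, with a median of -0.14, where 4.95% of all genes fell and 3.12% rose. Those that fell were the SNARE proteins Stx1a (-0.69) and Vamp1 (-0.43), the calcium sensor Syt1 (-0.34), and the complexins Cplx3 (-0.66) and Cplx2 (-0.50), with edgeR adjusted p from 0.0063 to 0.0368. Vamp1 was not called with group as the only term (adjusted p 0.085), and none of the 5 with the code and the Y-linked score. Doc2a, a calcium sensor of spontaneous release, had 11.5, 8.85, 33.3, 31.6 and 44.2 CPM in the controls and 13.4, 14, 20.1, 13.6 and 57.9 CPM in BrapcKO. It was called as higher (0.62, edgeR adjusted p 0.0257), but its level followed the code and the estimate was -0.12 with group as the only term. Within each code every BrapcKO library was above every control library, the reverse of the order seen for Rims2 and Cadps. Close relatives of the members that fell were not called: Unc13b and Unc13c differed by -0.21 and -0.33 (adjusted p 0.194 each) and Rims4 by -0.10 (0.675). With the code and the Y-linked score, 3 genes of both lists together were called, Rph3a, Cacna2d2 and Ptprd.

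**Figure D4:**
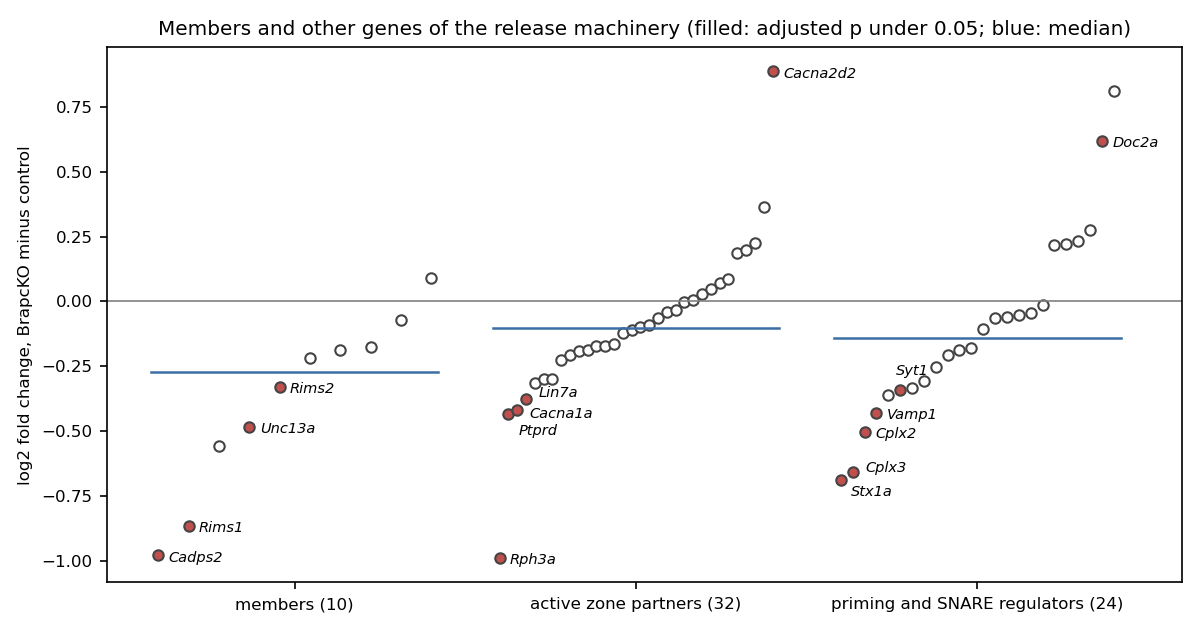
Log2 fold change, BrapcKO minus control (vertical axis), of the 10 members, 32 active zone partners and 24 priming and SNARE regulators, each sorted by value; filled points have an adjusted p under 0.05 and blue lines are medians. The medians are -0.27, -0.10 and -0.14, and Rph3a, Cadps2 and Rims1 are the lowest of the filled points.

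Markers of cell types moved in part with the groups. In the fit used for these and for the glial markers below, 4.95% of all genes fell and 3.12% rose. Of 10 general neuron markers 2 fell (Nefl and Nefm) and 1 rose (Uchl1), with a summed level of 8510 to 8833 CPM in control and 7666 to 8766 CPM in BrapcKO. Of 7 excitatory neuron markers 2 fell and 0 rose, with 6 estimates below 0, summing to 2512 to 3192 and 2284 to 2917 CPM. Of 7 inhibitory neuron markers 4 rose and 0 fell (819 to 938 and 1037 to 1693 CPM), and of 9 markers of striatal projection neurons, which lie beneath cortex, 6 rose and 0 fell (556 to 1203 and 957 to 1803 CPM). With group as the only term 2 of these inhibitory and 2 of these striatal markers rose, and with the Y-linked score added 1 of each, Gad2 and Penk. Excitatory markers that fell numbered 1 with group as the only term and 0 with the Y-linked score added. Nefl and Nefm fell in both of these fits, and Uchl1 was called in neither.

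Glial markers also differed. The 8 microglia markers summed to 291 to 322 CPM in control and 373 to 1015 CPM in BrapcKO, with no overlap, all 8 estimates above 0, a median of 0.60 and 1 call, C1qa of the complement system (1.48, edgeR adjusted p 0.0246). The 8 astrocyte markers summed to 5254 to 7027 and 4859 to 8920 CPM, with a median of 0.09 and 1 call, Gfap, a filament protein of reactive astrocytes. Gfap averaged 140.5 ± 14.3 CPM in control and 667 ± 380 CPM in BrapcKO (SD, n = 5 each; 2.05, edgeR adjusted p 0.02). Neither C1qa nor Gfap was called with the Y-linked score added (adjusted p 0.253 and 0.197). Of 8 oligodendrocyte markers (3226 to 4453 and 2371 to 3270 CPM) and 6 endothelial markers (146 to 238 and 212 to 347 CPM) 0 were called. None of these markers had 0 counts in any library. In bulk tissue fewer cells of a type and less RNA per cell cannot be told apart, and the part of cell composition in the results for the members was not tested.

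Within groups and codes the members did not vary as 1 block. Over the 10 libraries, after the means of group and code were removed, 21 of the 45 pairs of members had a Pearson r above 0, and the median r was -0.08. The highest values were 0.81 for Rims2 with Rims3, 0.79 for Rims1 with Erc1 and 0.76 for Erc1 with Unc13a, and the lowest were -0.80 for Rims3 with Erc2 and -0.78 for Rims2 with Unc13a. Rims1 and Cadps2, which fell most, had an r of 0.01. These are descriptions over 10 libraries that share title codes and depth. The 5 genes with residuals most like those of Cadps2, among 10482 with an average log2 CPM of at least 3, were Pprc1, Creb3l2, R3hdm1, Npas2 and Ppp4r1 (r from 0.94 to 0.97). Their group differences varied: R3hdm1 fell like Cadps2 (-0.79, edgeR adjusted p 0.00739; 0.593 with group as the only term), Creb3l2 rose (0.51, adjusted p 0.0473), and Pprc1, Npas2 and Ppp4r1 were not called.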

How the data were processed

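Cortical RNA depleted of ribosomal RNA was sequenced in 10 libraries. The authors deposited unscaled whole-number counts for each gene and library. The tools named are FastQC, Subread with featureCounts, edgeR and DESeq2, and the builds mm10 and GRCm38, per the submitters' processing notes, which give no versions, settings or strand. Every gene reached 0.582 CPM in at least 5 libraries. Of 14276 identifiers 14271 matched GENCODE M21 (GRCm38), the source of symbols, coordinates and exon lengths.

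Counts were fitted over all genes with edgeR 4.0.16 (R 4.3.3; TMM, filterByExpr, which removed 0 genes, robust quasi-likelihood, terms title code and group, Benjamini-Hochberg), and the members' results were read from that fit. Other fits used DESeq2 1.42.0, limma-voom (limma 3.58.1), other scalings, filters and terms, and subsets of libraries. SE is the log2 difference over the square root of F. Within-stratum differences use mean log2 CPM with a prior count of 1. The Y-linked score is the mean log2 CPM of 4 genes. Replicates differed beyond sampling noise (chi-square per degree of freedom 7.15 to 96.3 over 20 pairs). The procedure was also run on counts simulated with the title code and group as the only terms. These held no difference by sex, and no result given here rests on them.

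Members and lists were chosen with earlier results of these data known. All members are named; of each list, every gene with an adjusted p under 0.05; for likeness, the 5 highest Pearson correlations of residuals. Relatives of members without a call (Unc13b, Unc13c and Rims4) were named after their values were seen.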

Additional observations from a re-analysis of the deposited data

Results flagged for a closer look

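Cadps in BrapcKO 21, at 359.9 CPM, lay far below the other 4 BrapcKO libraries, which ran from 444 to 476 CPM. The gap to the nearest of them was 0.727 of the range of the group. This was 1 of 20 groups of 5 libraries read for the members, and chance alone gives such a gap in about 1 in 20. BrapcKO 21 was also the only B2 library of its group, and Cadps was lower in B2 than in B1 (-0.24, edgeR adjusted p 0.0264). The part of the code in this gap was not tested.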

How the results depend on the processing

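Depth did not limit the members, with at least 1760 reads each per library, and scaling moved the median of all genes by under 0.1. The 4 calls were also made with limma-voom, both other scalings, the stricter filter and B1 alone; omitting the filter changed nothing, since it had removed 0 genes.

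All changed genes numbered 1152, against 617 with group only, 328 with the Y-linked score added, 415 in B1, 54 in B2, 0 with Y-linked reads (1421 at an unadjusted p under 0.05) and 4 without them, and 406 to 1454 without 1 library. Changed members numbered 4, against 2 with the Y-linked score and 0 in B2 and in either sex, and 2 (without BrapcKO 21) to 6 (without control 24) without 1 library. Partners and priming regulators numbered 11, against 6 with group only, 3 with the Y-linked score, 5 in B1, 0 in B2 (10 unadjusted) and 0 in either sex (8 and 12 unadjusted), and 4 (without BrapcKO 21) to 14 without 1 library; without control 08 or 09 they numbered 7 and 6. Members called between flox/flox Cre+ and Cre- libraries numbered 2, against 0 with group only or with the Y-linked score (3 unadjusted in each) and 1 to 2 without 1 library. Members called for the code numbered 5, and 1 to 5 without 1 library. Without control 08, control 09 or BrapcKO 21, 558, 516 and 406 genes changed. The causes were not tested, beyond the smaller number of libraries in subsets.

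Estimates changed sign for Bsn (0.062 with group only, 0.013 in B1, 0.287 without Y-linked reads, and -0.285 to 0.0076 without 1 library), Pclo (0.056 with group only), Erc1 (0.038 with Y-linked reads) and Erc2 (-0.076 without). None of these was called. No paired analysis was possible because the groups share no replicate numbers. Fits within the sexes and all alternatives for the lists and for the code were chosen after seeing the data.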
